A study of Rattus norvegicus with 8 samples.

Results

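Schwann cells are the glia of peripheral nerve. The Schwann cell and myelin genes Mbp, Pmp22, Prx, S100b, Sox10, Cdh19 and Ngfr were followed in vessels of male rats, using every gene probe of the arrays whose transcript belongs to 1 of these 7 genes by name. All 7 were on the array, among 16678 genes it names, and were read by 10 of its 45598 probes. RNA came from vessels of 4 hypertensive rats, the disease model of the series, and of 4 control Wistar-Kyoto rats, with 1 single-colour Agilent array per animal. All animals were male. The strain entry of the hypertensive rats also reads Wistar-Kyoto, so the strain of that group is not settled here, and the age of the animals, the treatment of either group and the vessel taken are not given in the sources used here. Nothing in the labels says whether animals within a group were littermates. A level below is the log2 processed signal of a probe minus the 75th percentile of its array, and a change is hypertensive minus control on that scale. In whole vessels a lower level can mean fewer cells of a type or less RNA per cell, and these cannot be told apart.

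Schwann cells of peripheral nerve either wrap single large axons in myelin or, as Remak cells, hold bundles of small axons without myelin. The sympathetic fibres that run along vessels are mostly of the small, unmyelinated kind. The transcription factor Sox10 marks the Schwann lineage and, in rodents, acts with Egr2 to switch on myelin genes. Mbp and Pmp22 encode proteins of compact myelin, Prx a scaffold that ties the outer Schwann cell membrane to its basal lamina, S100b a calcium-binding protein, Ngfr the low-affinity neurotrophin receptor of immature and injured Schwann cells, and Cdh19 a cadherin of Schwann cell precursors.

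Start-site sequences from RefSeq (GRCr8, the sequence from 250 bases before to 50 after a start) were matched for 5 of the 7 genes. They are given because Sox10 was the member with the smallest p and its protein binds DNA. The SOX core words ACAAAG and ACAATG were searched on both strands, and 1 of 6 member windows held a match, against 29.13% of all 33469 windows of 300 bases. That window belongs to the second of 2 Mbp starts (chr18:78209995-78210294, plus strand), with matches beginning 240, 197 and 162 bases before the start. It is shown with the window of S100b, the gene with the largest change of the members (chr20:12381032-12381331, minus strand), which held neither word. Capitals mark the matches, 5′ to 3′, as they read on the gene's strand. A match is a word in the sequence and no evidence of binding.
Mbp: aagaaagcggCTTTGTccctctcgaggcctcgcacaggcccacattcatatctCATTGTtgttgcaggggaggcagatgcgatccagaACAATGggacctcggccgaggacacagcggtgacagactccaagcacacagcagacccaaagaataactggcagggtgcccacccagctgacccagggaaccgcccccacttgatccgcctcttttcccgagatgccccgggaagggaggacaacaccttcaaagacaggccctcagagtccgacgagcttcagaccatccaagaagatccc
S100b: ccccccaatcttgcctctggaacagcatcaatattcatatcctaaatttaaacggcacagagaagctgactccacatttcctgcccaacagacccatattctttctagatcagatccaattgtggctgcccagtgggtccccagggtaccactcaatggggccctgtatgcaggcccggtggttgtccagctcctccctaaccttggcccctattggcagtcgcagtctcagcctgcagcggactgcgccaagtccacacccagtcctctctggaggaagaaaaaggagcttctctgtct

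The vessel samples carried their labelled tissue, with the smooth muscle myosin gene Myh11, the actin gene Acta2 and the endothelial gene Pecam1 well above background on all 8 arrays. Of the 7 member genes, 6 were well above background on all 8 arrays and entered the test. Cdh19 was above background on none. Of the wider Schwann cell markers, 1 of the 2 probes of the myelin adhesion gene Mag was above background on all 8 arrays and the other on none, while Gfap, Fabp7, Pmp2, Gjb1 and Drp2 were above background on no array. Sox10 is also a gene of melanocytes and oligodendrocytes. Of 9 oligodendrocyte genes, 6 (Cldn11, Mobp, Aspa, Olig1, Mog and Nkx2-2) had a probe above background on all 8 arrays, and Opalin, Ermn and Olig2 were above background on none. Of the 5 melanocyte genes on the array, Mitf and Slc45a2 were above background on all 8 arrays, Mlana on 1 hypertensive and no control array, and Tyr and Tyrp1 on none. The part of such cells in the Sox10 signal was not tested.

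None of the 6 tested members passed an adjusted p under 0.05 (limma with Benjamini-Hochberg adjustment over 24552 genes or unnamed probes), where 4.53% of all tests passed. At an unadjusted p under 0.05 there were 2 of the 6, Sox10 and S100b, against 20.3% of all tests. The same 2 genes were those whose groups did not overlap, both higher in hypertensive vessels, where 13.6% of all tests did not overlap and 7.84% did so with hypertensive vessels higher. Of the 6, 3 changes were positive and 3 negative. Their median change was 0.18, beside 0.04 over all tests. It was 0.11 without hypertensive replicate 1, 0.10 without control replicate 4, 0.09 with median centring and 0.27 with the mean of kept probes. By normexp background correction 2 members passed, and by the replicate block, array weights or a covariate for fat cell genes 1 each.

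**Figure D1:**
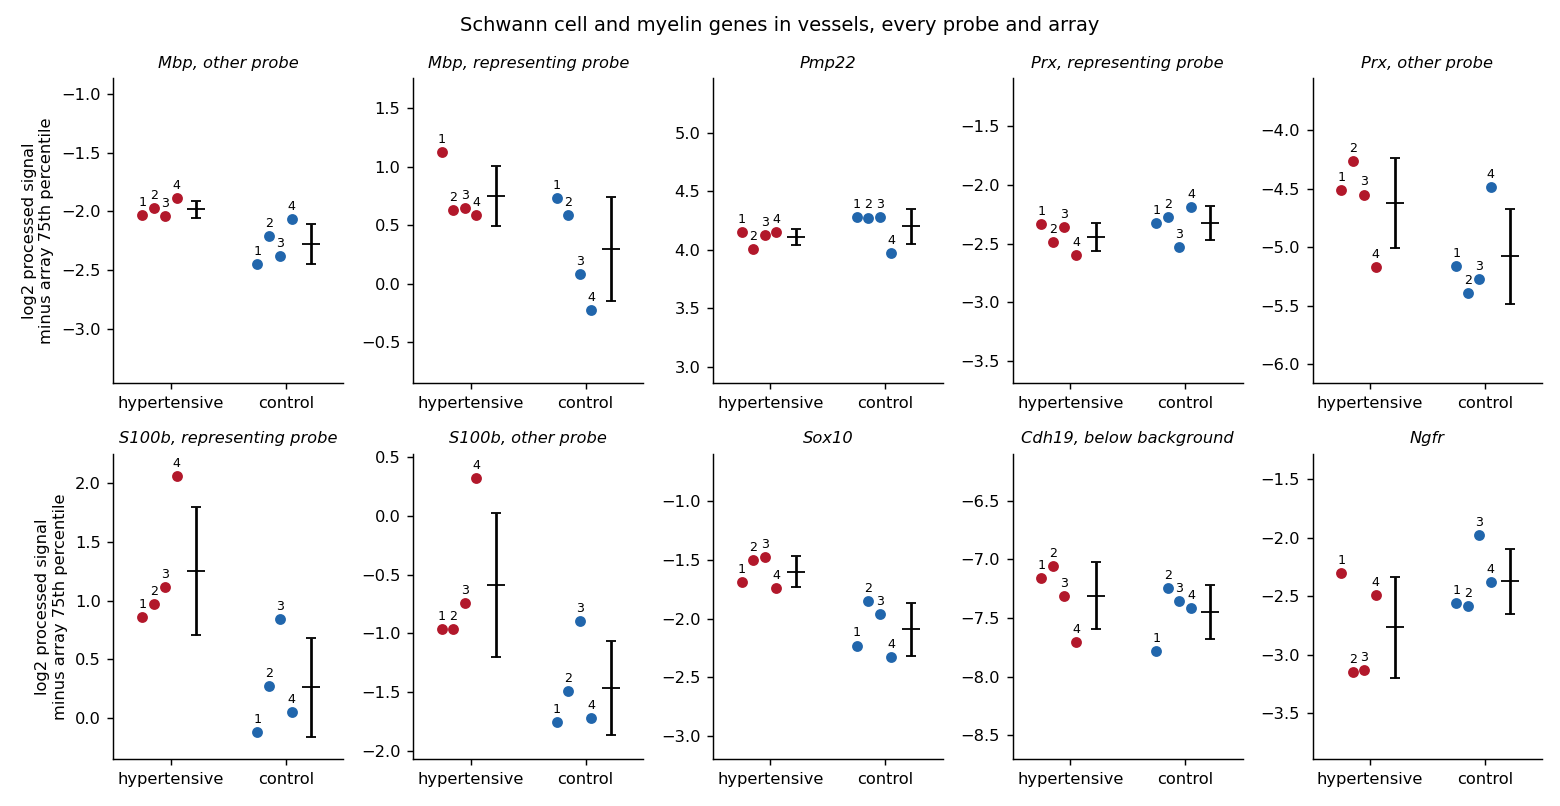
Levels of all 10 probes of the 7 member genes (log2 processed signal minus the array's 75th percentile, each panel spanning the same log2 range) in 4 hypertensive and 4 control arrays, numbered by replicate, with the mean and SD as bars. Sox10, the representing probe of S100b and the other probe of Mbp have groups that do not overlap, while Pmp22 and both Prx probes do overlap.

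Sox10, the lineage factor, stood at -1.69, -1.50, -1.47 and -1.74 in hypertensive vessels, against -2.23, -1.85, -1.96 and -2.33 in control vessels. All 4 hypertensive arrays lay above all 4 control arrays, the closest pair being hypertensive replicate 4 and control replicate 2. The change was 0.49 ± 0.13 (SE, 4 arrays per group), or 1.41-fold, with a 95% interval of 0.20 to 0.78 and an adjusted p of 0.067 in limma. Sox10 thus missed the threshold. It passed with normexp (0.35, adjusted p = 0.049), with the replicate block (0.49, adjusted p = 0.04998) and with array weights (0.56, adjusted p = 0.039), while the adjusted p ranged up to 0.165 over the other alternatives.

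S100b was read by 10 spots on each of 2 probes. On its brighter probe the level was 0.86, 0.97, 1.11 and 2.06 in hypertensive vessels, against -0.13, 0.27, 0.84 and 0.05 in control vessels. The groups did not overlap but nearly met, since hypertensive replicate 1 exceeded control replicate 3 by little. The change was 0.99 ± 0.29, or 1.99-fold, with a 95% interval of 0.33 to 1.66 and a limma adjusted p of 0.098. The second probe gave -0.96, -0.97, -0.74 and 0.32 in hypertensive vessels, against -1.76, -1.49, -0.89 and -1.73 in control vessels. There control replicate 3 lay above hypertensive replicates 1 and 2, so that the groups overlapped, and the change was 0.88 ± 0.31 (adjusted p = 0.158 in limma over all kept probes). Spots of the brighter probe varied within an array by an SD of 0.034 to 0.070 in log2, far less than the animals did (SD of 0.55 in hypertensive and 0.42 in control vessels, n = 4 each).

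S100b is also made by fat cells. The 9 tested white adipocyte genes, each centred over the 8 arrays, had mean levels of -0.03, -1.09, -0.19 and 2.37 in hypertensive replicates 1 to 4, against -0.72, -0.07, 0.40 and -0.67 in control replicates 1 to 4. Hypertensive replicate 4 was the highest hypertensive array for all 9 of these genes and for both S100b probes, and control replicate 3 was the highest control array for both S100b probes and for the list mean. The fat cell gene Plin1 was above background on hypertensive replicate 4 alone. Without hypertensive replicate 4 the S100b change was 0.72 (adjusted p = 0.091). With the list mean as a covariate, an alternative added after these values were seen, it was 0.78 ± 0.16 (adjusted p = 0.030), and over all alternatives the adjusted p of S100b ranged from 0.030 to 0.224. How much of the S100b signal came from fat cells was not tested.

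**Figure D2:**
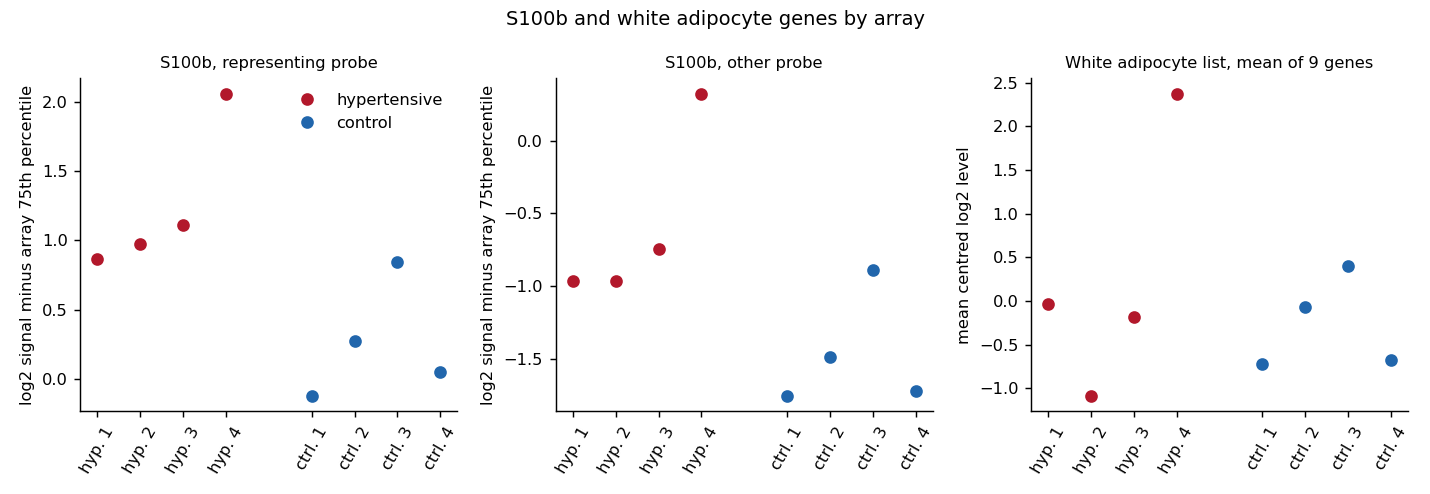
S100b levels on its 2 probes (log2 signal minus the array's 75th percentile) and the mean centred log2 level of 9 white adipocyte genes, by array. Hypertensive replicate 4 is the highest array in all 3 panels, while hypertensive replicate 2, the lowest array for the adipocyte genes, lies above 3 of 4 controls or more on both S100b probes.

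Mbp, whose protein joins the inner faces of the myelin membrane, had 2 probes. The brighter one gave 1.13, 0.63, 0.65 and 0.58 in hypertensive vessels, against 0.73, 0.59, 0.08 and -0.22 in control vessels. Hypertensive replicate 1 stood above all other arrays, and control replicates 1 and 2 overlapped the hypertensive group. The change was 0.45 ± 0.22 with a 95% interval of -0.05 to 0.95 (limma adjusted p = 0.295), and it was 0.28 without control replicate 4. The second Mbp probe varied less, with -2.03, -1.98, -2.04 and -1.88 in hypertensive vessels, against -2.45, -2.21, -2.38 and -2.07 in control vessels. Its groups did not overlap, and its change of 0.30 ± 0.10 also missed the threshold (adjusted p = 0.147 in limma over all kept probes). The 2 probes carry accessions of different Mbp transcripts, and they differed in which arrays were high: control replicate 4 was the lowest control array on the brighter probe and the highest on the other.

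Pmp22, a small membrane protein of compact myelin that other cell types such as fibroblasts also make, was even across the arrays. Its level was 4.149, 4.004, 4.129 and 4.151 in hypertensive vessels, against 4.276, 4.276, 4.276 and 3.973 in control vessels. Control replicate 4 lay below the hypertensive arrays and the other 3 controls above them. The change was -0.09 ± 0.10 (limma adjusted p = 0.627), with a 95% interval of -0.31 to 0.12.

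Prx, the periaxin gene, gave -2.34, -2.48, -2.36 and -2.60 in hypertensive vessels, against -2.32, -2.27, -2.53 and -2.19 in control vessels on the brighter of its 2 probes. The groups overlapped, with a change of -0.12 ± 0.10 and a 95% interval of -0.35 to 0.11 (limma adjusted p = 0.558). The dimmer probe gave -4.52, -4.26, -4.55 and -5.17 in hypertensive vessels, against -5.16, -5.39, -5.27 and -4.49 in control vessels. It was above background on 4 of 4 hypertensive and 2 of 4 control arrays. Its change had the opposite sign, 0.45 ± 0.24 (adjusted p = 0.336 in limma over all kept probes), so no direction is given for Prx.

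Ngfr, the p75 receptor for neurotrophins, was -2.30, -3.14, -3.13 and -2.49 in hypertensive vessels, against -2.56, -2.58, -1.98 and -2.38 in control vessels. Hypertensive replicates 2 and 3 were below every control array, and hypertensive replicates 1 and 4 lay within the control range. The change was -0.39 ± 0.22 with a 95% interval of -0.90 to 0.11 (limma adjusted p = 0.367), and it was -0.26 without control replicate 3. Cdh19, the cadherin gene, had processed signals at -7.16, -7.06, -7.31 and -7.71 in hypertensive vessels, against -7.78, -7.25, -7.36 and -7.41 in control vessels. As none of these was well above background, they give no level and no fold.

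**Figure D3:**
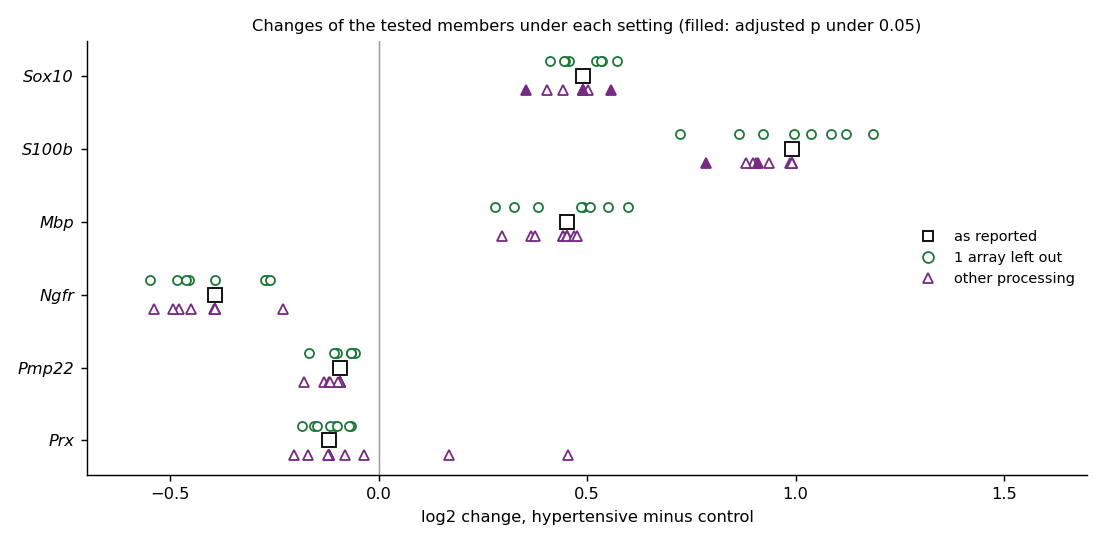
Log2 change, hypertensive minus control, of the 6 tested members as reported (squares), with 1 array left out (circles) and with other processing (triangles). Filled symbols mark an adjusted p under 0.05. Sox10 and S100b stay above 0 in every setting and are filled in 3 and 2 of them, and Prx lies on both sides of 0.

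The wider set of Schwann cell genes comprised 81 genes in 7 lists besides the members, of which 75 were on the array by name and 61 were tested. Of these 61, 3 rose, none fell and 58 did not pass, beside 2.61% of all tests higher and 1.91% lower. The 61 changes were positive for 40 genes and negative for 21, with a median of 0.10, while 14158 of all 24552 changes were positive. The 3 that rose were Gldn, Ncam1 and Lgi4, each read by 1 probe and each with groups that did not overlap.

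Gldn encodes gliomedin, which Schwann cells place at the node of Ranvier, where it gathers sodium channels of the axon. Its level was -1.96, -2.29, -1.75 and -2.22 in hypertensive vessels, against -3.45, -3.52, -3.51 and -3.62 in control vessels. The 4 controls lay close together and more than a log2 unit below the lowest hypertensive array. The rise was 1.47 ± 0.12 (2.77-fold, limma adjusted p = 0.00028), and it passed in every alternative, with an adjusted p of at most 0.0054. It was 0.78 with normexp.

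Ncam1, an adhesion molecule that Remak Schwann cells, nerve and muscle carry, was -1.61, -1.37, -1.37 and -1.45 in hypertensive vessels, against -2.10, -2.93, -2.10 and -2.35 in control vessels. The rise was 0.92 ± 0.18 (limma adjusted p = 0.024), with the control group the more variable. It no longer passed when hypertensive replicate 2 (adjusted p = 0.069), hypertensive replicate 3 (0.066) or control replicate 4 (0.058) was left out, with the replicate block (0.075) or without a filter on dim probes (0.061), and its adjusted p ranged from 0.0072 to 0.075 over all alternatives. The 5 tested skeletal muscle genes, whose tissue also carries Ncam1, had list means of -0.19 to 0.65 in hypertensive arrays and -0.63 to -0.12 in control arrays. These genes did not move together: 3 changes were positive and 2 negative, from -0.42 for Acta1 to 2.28 for Myh1. The part of skeletal muscle in the Ncam1 result was not tested.

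Lgi4, a secreted signal of Schwann cells that promotes myelination, was -0.80, -0.80, -0.41 and -0.46 in hypertensive vessels, against -1.44, -1.40, -1.03 and -1.29 in control vessels. The rise was 0.67 ± 0.13 (1.59-fold, limma adjusted p = 0.027). It no longer passed when hypertensive replicate 3 (adjusted p = 0.067) or control replicate 1, 2 or 4 (0.082, 0.077 and 0.064) was left out, with median centring (0.068) or without a filter (0.070). Its adjusted p ranged from 0.0089 to 0.082 over all alternatives.

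**Figure D4:**
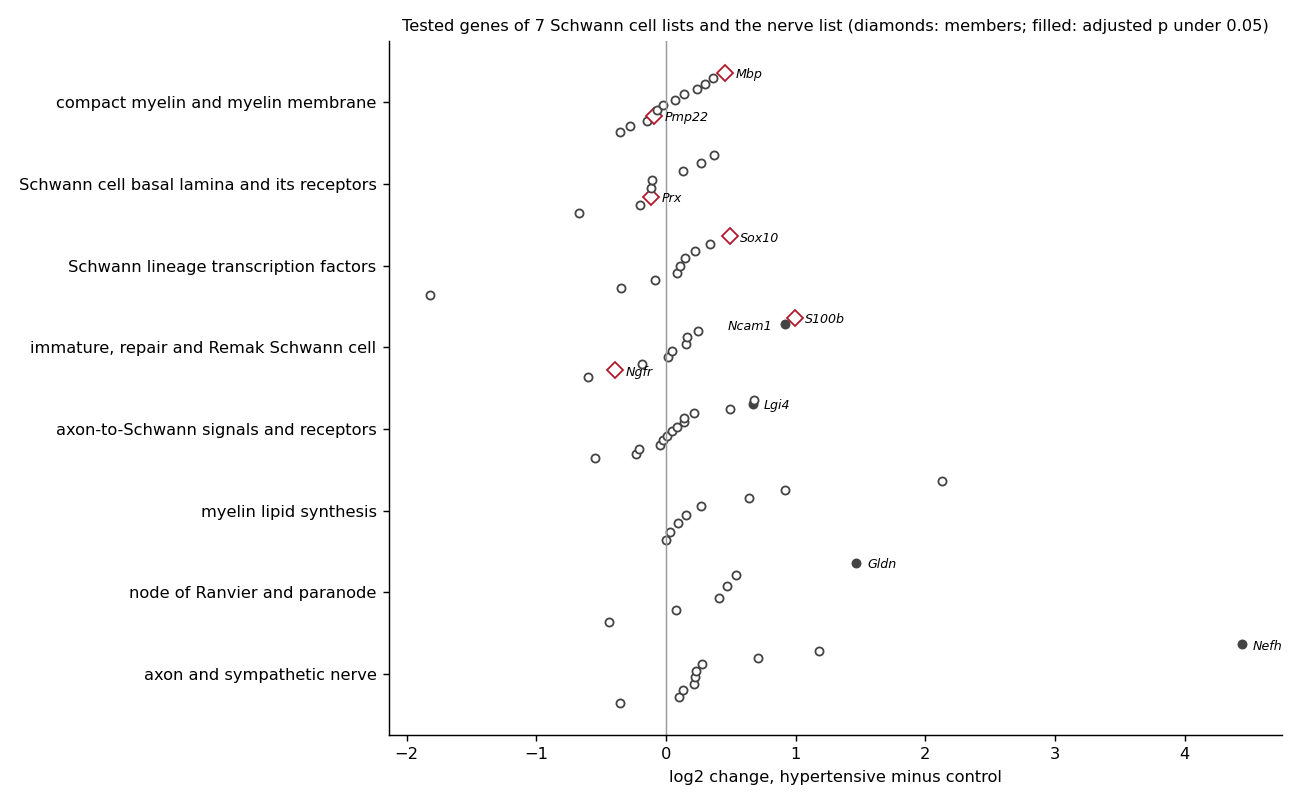
Log2 change, hypertensive minus control, of the tested genes in 7 Schwann cell lists and the nerve list, 1 point per gene. Diamonds are the 6 tested members, none filled, and the filled points Gldn, Ncam1, Lgi4 and Nefh are past an adjusted p of 0.05, Nefh drawn at a fitted change that rests on control signals below background.

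None of the 12 tested genes of compact myelin and the myelin membrane passed, 6 of them changing upward and 6 downward with a median of 0.02. The smallest p was that of Cd9, a tetraspanin of many cell types, at -0.28 ± 0.09 (limma adjusted p = 0.115). Mag, an adhesion molecule of the inner myelin wrap, was named after its values were seen and on its 1 kept probe gave -1.25, -1.37, -1.81 and -1.92 in hypertensive vessels, against -2.06, -1.57, -1.91 and -1.77 in control vessels. The groups overlapped, with hypertensive replicate 1 the highest array, as on the brighter Mbp probe, and the change was 0.24 ± 0.17 (limma adjusted p = 0.477). Cryab, a small heat shock protein gene that muscle also uses and the brightest of the list, differed by 0.14 ± 0.10 (adjusted p = 0.498). In the 12 genes, control replicate 4 was the lowest control array for 8, where this was so for 23.5% of all tests, and hypertensive replicate 1 the highest hypertensive array for 4, where it was so for 27.8%. These shares are a description of single animals.

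**Figure D5:**
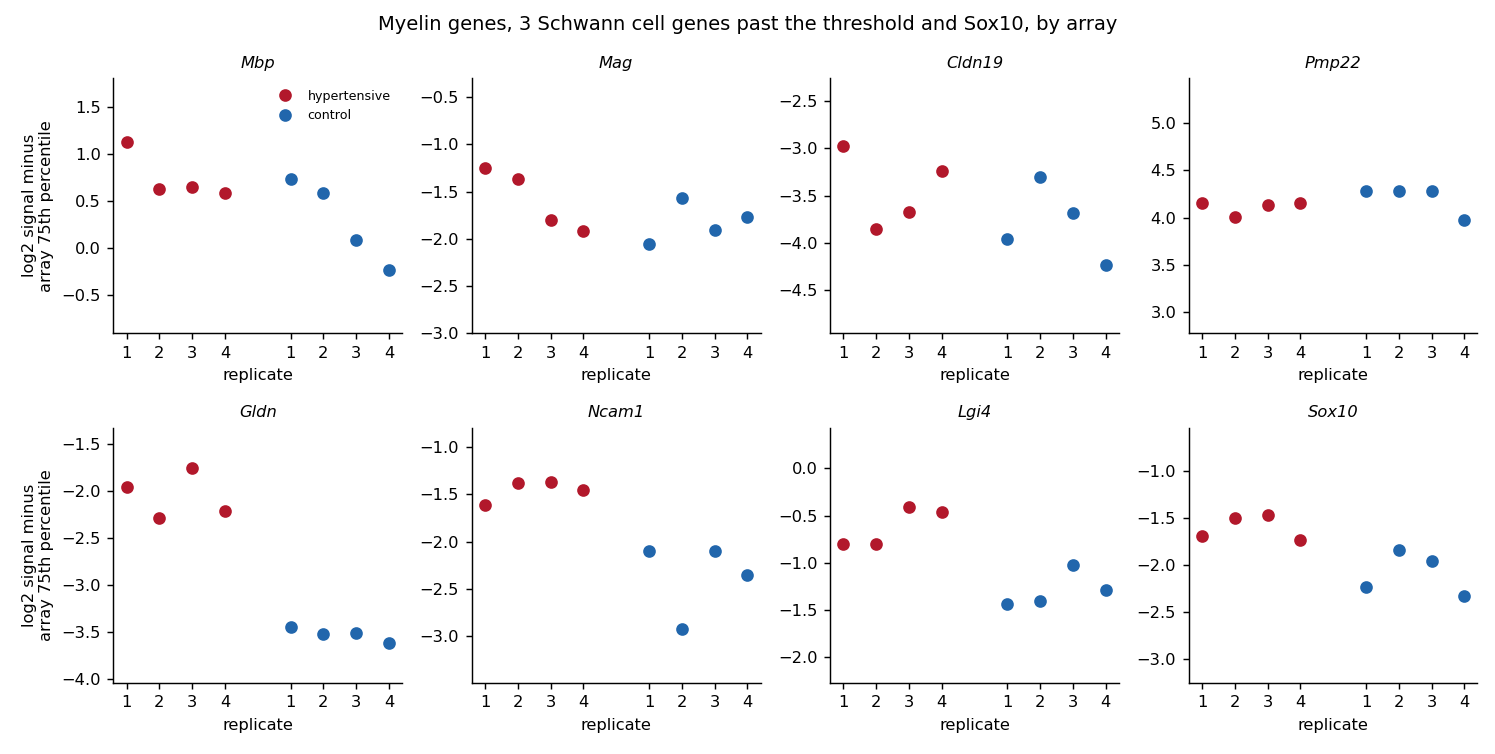
Levels by array (log2 signal minus the array's 75th percentile, each panel spanning the same log2 range) of the myelin genes Mbp, Mag, Cldn19 and Pmp22 and of Gldn, Ncam1, Lgi4 and Sox10, each on its brightest kept probe. The upper panels overlap between the groups, with hypertensive replicate 1 the highest array for Mbp, Mag and Cldn19, and the lower panels do not overlap.

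Among 9 tested transcription factors of the lineage, each read by its brightest kept probe, none passed. Next to Sox10, Egr2, the partner of Sox10 in myelination, had the smallest p, at -1.82 ± 0.48 on its brighter probe (limma adjusted p = 0.072). Its other probe gave -0.87 ± 0.27 (adjusted p = 0.112 over all kept probes), with groups that overlapped. Egr2 is also an immediate early gene, and 7 of 8 tested immediate early genes fell, with list means of -1.36 to -0.44 in hypertensive and 0.48 to 1.53 in control arrays. The part of that response in the Egr2 values was not tested. Pou3f1, a factor of promyelinating Schwann cells, differed by 0.22 ± 0.09 and Id2, a repressor of differentiation, by -0.34 ± 0.12 (adjusted p = 0.229 and 0.146, both named after their values were seen). The corepressor gene Nab1, the brightest of the list, had 4 kept probes that disagreed. Its brightest differed by 0.14 ± 0.10 (adjusted p = 0.456), and 2 others by -0.17 ± 0.22 and -0.15 ± 0.12 (adjusted p = 0.697 and 0.520 over all kept probes). The remaining Nab1 probe gave -3.54, -3.38, -3.22 and -3.79 in hypertensive vessels, against -1.61, -1.68, -1.87 and -1.83 in control vessels. On that probe the groups did not overlap and the change passed the threshold (-1.74 ± 0.13, adjusted p = 0.00014 in limma over all kept probes), so no direction is given for Nab1 as a gene. Sox2 and Pou3f2 did not pass the filter on dim probes.

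Of 10 tested genes of immature, repair and Remak Schwann cells, 1 rose (Ncam1) and none fell. Gpm6b, a membrane proteolipid, differed by -0.60 ± 0.15 on its brighter probe (limma adjusted p = 0.063, named after its values were seen). Its other probe had the opposite sign, 0.10 ± 0.20 (adjusted p = 0.810 over all kept probes), so no direction is given for Gpm6b. Plekhb1, the brightest of the list, differed by 0.15 ± 0.11 (limma adjusted p = 0.463). None of 8 tested basal lamina genes passed. The smallest p there were those of the integrin gene Itgb4 (0.37 ± 0.13) and the sarcoglycan gene Sgcb (0.27 ± 0.11), with adjusted p of 0.160 and 0.219 in limma. Dag1, the dystroglycan gene and the brightest of the list, differed by 0.13 ± 0.09 (adjusted p = 0.443).

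Of 14 tested signals and receptors between axon and Schwann cell, 1 rose (Lgi4) and none fell. Nrg1, the axonal growth factor that sets myelin thickness, differed by 0.50 ± 0.24 on its brightest probe (limma adjusted p = 0.286). Its other kept probes gave 0.83 ± 0.30, 0.58 ± 0.21 and 0.53 ± 0.27 (adjusted p = 0.169, 0.162 and 0.312 over all kept probes). Its receptor gene Erbb2 differed by 0.14 ± 0.10 (adjusted p = 0.494). Both genes were named after their values were seen. Erbb3, the partner of Erbb2 in that receptor, was above background on 1 of 4 hypertensive and 2 of 4 control arrays and was not tested. The neurotrophin gene Bdnf differed by 0.68 ± 0.17 (adjusted p = 0.058), also named after its values were seen. Gas6, a ligand of the TAM receptors and the brightest of the list, differed by -0.02 ± 0.10 (adjusted p = 0.924). None of 8 tested genes of myelin lipid synthesis passed, with Gal3st1, a sulfatide-making enzyme gene, at 0.64 ± 0.18 and the desaturase gene Scd, which fat cells use too, at 2.13 ± 0.79 (adjusted p = 0.091 and 0.175). The elongase gene Elovl1, the brightest there, differed by 0.10 ± 0.08 (adjusted p = 0.556). Of 6 tested genes of the node and paranode, 1 rose (Gldn) and none fell. Epb41l3, which anchors the paranodal junction and was the brightest of the list, differed by -0.44 ± 0.12 (adjusted p = 0.085). Its other kept probe gave -0.44 ± 0.11 (adjusted p = 0.068 over all kept probes).

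Of 10 tested axon and sympathetic nerve genes, 1 rose. It was the heavy neurofilament gene Nefh, above background on all 4 hypertensive arrays and no control array. With the processing reported here, Nefh was at least 13.0-fold higher in hypertensive vessels (limma adjusted p = 0.00015). That bound holds for this processing only, as the fitted log2 change ranged from 1.48 to 4.72 over the alternatives. The light and medium neurofilament genes Nefl and Nefm were above background on no array. Th, which encodes the enzyme that limits noradrenaline synthesis, was named after its values were seen and was 0.33, 0.08, 0.29 and 0.12 in hypertensive vessels, against 0.13, 0.19, -0.09 and 0.09 in control vessels, so that the groups overlapped (0.13 ± 0.10, adjusted p = 0.491). Prph, the peripherin gene and the brightest of the list, differed by 0.10 ± 0.17 (adjusted p = 0.774). Syt1 differed by 1.18 ± 0.37 and Stmn2 by 0.71 ± 0.30 (limma adjusted p = 0.118 and 0.220), both named after their values were seen. The kept Syt1 probe was above background on 3 hypertensive arrays and 1 control array. Of the 10 changes, 9 were positive and 1 negative, with a median of 0.23, while 14158 of all 24552 changes were positive.

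The order of the 8 arrays differed between members. Each gene's levels were centred and scaled to an SD of 1, and the mean of the 6 tested members, scaled likewise, was compared with every named gene. Among the members, which the mean itself contains, Mbp was nearest to it, with a root mean square difference of 0.64, and Prx farthest at 1.50. Of all other named genes, the 5 nearest to the mean were Magix (0.19), Josd2 (0.35), Cldn19 (0.36), LOC103693556 (0.36) and Entpd5 (0.38). By nearness to the mean over the 11965 named genes tested, Mbp ranked only 103 and Prx 9707, so the mean is not a profile that the members share. Cldn19, a claudin of Schwann cell junctions, gave -2.98, -3.85, -3.67 and -3.23 in hypertensive vessels, against -3.96, -3.31, -3.68 and -4.24 in control vessels, highest in hypertensive replicate 1 and lowest in control replicate 4 on its brightest probe. Its 2 other kept probes did not share that order and differed by -0.37 ± 0.32 and -0.03 ± 0.15 (adjusted p = 0.556 and 0.941 over all kept probes).

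The arrays lay on 1 slide with 1 scan time, the hypertensive group in one column of positions and the controls in the other, so slide column and group cannot be told apart. In both groups the replicate number was also the slide row, so the replicate block is a block for slide row as well. Processed signals had 75th percentiles of 357 to 478 on hypertensive and 405 to 503 on control arrays, and no gene spot was saturated. On the second principal component hypertensive replicate 4 scored -44.6, outside the -12.0 to 24.9 of the remaining 7 arrays. Without that array none of the 6 members passed, as with it, while Gldn, Ncam1 and Lgi4 kept their calls (adjusted p of at most 0.046).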

How the data were processed

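Trizol RNA (100 ng) was labelled with Cy3, per the labels' protocols. The deposited scanner files give the intensity of each spot after processing and background subtraction by Agilent Feature Extraction (version 10.7.1.1 per the file headers, 12.1.1.1 per the submitters' processing notes). The deposited value table holds a linear ratio of each processed signal to about its array's 75th percentile and served as an alternative. Spots marked as outliers (213 to 396 on an array) were dropped unless a probe had no other, log2 values were averaged per probe, and the array's 75th percentile was subtracted. A probe was kept when well above background on at least 3 of 4 arrays of a group (27822 of 45598). Symbols came from an NCBI table (GRCr8) matched on accession without version, which named 21229 probes (46.6%). A gene was its brightest kept probe, giving 24552 tests. Groups were compared with limma 3.58.1 in R 4.3.3 (lmFit, eBayes, group only), with Benjamini-Hochberg adjustment over all tests and a threshold of 0.05, and the script was tested on simulated data. The ± of a change is the limma SE.

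Every adjusted p in the text is from such a limma fit. The number of arrays limits the precision. Beyond group, sex, a strain entry and 1 array per animal, the sources used here give little on the animals. The p-values set the group difference against the spread between these samples and cannot separate group from slide column. "At least" is used where no array of one group measured a probe above background. The brighter mean is then set against a floor, per dim array the lowest signal among probes above background or the dim probe itself if that is larger. The members, the 18 gene lists and the tests were chosen with earlier results of these data known. Genes were named by rule: all members, from each list up to 4 genes past the threshold, in the Schwann cell and nerve lists also the 2 with the smallest p where none passed and the brightest, and the 5 genes nearest in pattern. The markers named only for detection, and the genes marked in the text, were named after their values were seen. Of the other lists, each in the tested genes, none passed of 6 oligodendrocyte, 2 melanocyte, 6 perineurial and endoneurial, 9 white adipocyte, 7 smooth muscle, 6 endothelium and 6 fibroblast genes, while Myh1 rose (2.28, or 0.83 with normexp) among 5 skeletal muscle genes and Mrc1 fell (-0.51) among 5 macrophage genes, both calls lost in some alternatives, and 7 of 8 immediate early genes fell, the smallest p being those of Dusp1 (-1.83), Fos (-1.81), Fosb (-2.85) and Ier2 (-1.14), of which Fosb and Ier2 also lost their calls in some alternatives (adjusted p up to 0.064 and 0.090). Normexp (offset of 50) used the median spot and background intensity, since the files used here hold no mean signal. The replicate numbers did not pair the arrays: deviations of same-numbered arrays correlated at 0.21, 0.12, -0.0035 and -0.15.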

Additional observations from a re-analysis of the deposited data

Results flagged for a closer look

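Of 50 groups of 4 arrays checked over the member probes and the named genes, 6 held 1 array set apart from the other 3. Chance flags about 1 in 20 groups, a rate that these 6 cannot be set against, since Entpd5 and LOC103693556 were chosen for following the member mean, which was highest in hypertensive replicate 1 and lowest in control replicate 4. Pmp22 was low on hypertensive replicate 2 (4.004, the others 4.129 to 4.151) and on control replicate 4 (3.973, the others all at 4.276). The brighter Mbp probe was high on hypertensive replicate 1 (1.13, the others 0.58 to 0.65). Nefh was high on hypertensive replicate 2 (-1.83, the others -2.09 to -2.07). Entpd5 was high on hypertensive replicate 1 (0.054, the others -0.19 to -0.16), and LOC103693556 was low on control replicate 4 (-5.45, the others -4.63 to -4.53).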

How the results depend on the processing

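Mbp, Pmp22, Ngfr, S100b and Sox10 kept their sign in every alternative run. The sign of Prx turned with the mean of its kept probes (0.17) and on its other probe (0.45). S100b passed the threshold with normexp (0.91) and with the white adipocyte covariate (0.78), an alternative added after seeing the data like the other probes. Sox10 passed with normexp (0.35), the replicate block (0.49) and array weights (0.56), which made 2 members past the threshold with normexp, 1 with the replicate block, 1 with array weights and 1 with the adipocyte covariate, and 0 with any 1 array left out. The lineage transcription factors past the threshold were 2 with normexp, 1 with the replicate block and 1 with array weights. All tests past the threshold were 1853 with normexp, 641 without a filter, 675 with the replicate block and 629 to 1473 with 1 array left out (688 where hypertensive replicate 2 was dropped, and 629, 725 and 695 where control replicate 1, 2 or 3 was). They split into 641 higher and 470 lower as reported, 1199 and 654 with normexp, 529 and 586 with quantile normalization, and 422 and 652 with median centring. Nerve genes past it were 2 with normexp, 0 when all 8 arrays had to be above background, which removes Nefh by construction, and 1 to 2 with 1 array left out. Axon-to-Schwann signals past it were 3 with normexp, 3 with array weights, 2 with the adipocyte covariate, 0 with median centring or without a filter, and 0 to 2 with 1 array left out. Immature and Remak genes past it were 3 with normexp, 2 with median centring, 2 with the adipocyte covariate, 0 without a filter or with the replicate block, and 0 to 1 with 1 array left out. Myelin lipid genes past it were 0 to 1, and node genes 1 to 2, with 1 array left out, and node genes were 2 with normexp and 2 with median centring. The cause of these shifts was not tested, except that the run without a filter adjusted over 41047 tests. The replicate block changed no other member's call. Signal over background limits Cdh19, which gave no test.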
